A study of Mus musculus with 4 samples.

Results

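The core circadian clock genes of mouse tibialis anterior (TA) muscle, which lifts the front of the foot, were compared between old and young mice. They are 10 genes, chosen by symbol: the activators Arntl (its protein is BMAL1), Clock and Npas2, and the repressors Cry1, Cry2, Per1, Per2, Per3, Nr1d1 and Nr1d2. All 10 were found among 20340 gene labels with a value in every sample. Arntl rose in old muscle, whereas Per1 and Per2 fell. The other 6 members that could be tested did not pass the threshold, and Npas2 was too low to test.

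In the clock, BMAL1 pairs with CLOCK, or with its relative NPAS2, and the pair binds E-boxes in the promoters of the Per, Cry and Nr1d genes and switches them on. PER and CRY proteins build up, enter the nucleus and inhibit the pair that made them, while NR1D1 and NR1D2 (REV-ERB alpha and beta) bind ROR elements and repress Arntl. The delay in these loops gives a daily rhythm, in which Arntl and the Per genes are high at opposite times of the day, and in skeletal muscle the rhythm reaches genes of glucose uptake and fuel use.

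Messenger RNA was sequenced from C57BL/6 mice with no transgene or treatment, aged 20 months (Old 1 and Old 2) and 3 months (Young 1 and Young 2), which gave 2 samples per age and 4 in all. The study describes the old TA muscle as atrophied and the mice of both ages as healthy. The study calls the sequencing experiments of an age independent and states that separate mice made up each group of its animal work, while the series' design text speaks of triplicates. Neither these statements nor the labels tie single mice to the sequenced samples. The hour at which the muscles were taken is not given in the sources used here, and its part in the results was not tested. The study states that its mice were of randomly chosen sex, and the comparisons here take no account of sex.

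Values are FPKM, fragment numbers divided by transcript length and by the mapped total of each sample, so levels can be compared between genes. Between the samples of an age the deposited values differed by a factor shared by nearly all genes, with a median log2 ratio of 0.988 for Old 1 to Old 2 and 0.97 for Young 2 to Young 1 over 3656 genes at 10 FPKM or more. Each sample was therefore divided by its median ratio to the other samples, and all levels below are scaled FPKM unless named otherwise. After scaling, the robust SD of the log2 ratio came to 0.065 for the old pair and 0.066 for the young pair, and to 0.398 to 0.403 across ages. By this measure, which gives little weight to outlying genes, the samples of an age lay very close together. Some abundant fibre genes stayed apart after scaling, such as Pvalb at 13970 in Old 1 and 4906 in Old 2. Summed FPKM as deposited was 698130 in Old 1 and 226747 in Old 2, and 251294 in Young 1 and 739302 in Young 2. Whether the samples of an age are separate libraries cannot be told from FPKM values. If they were repeats of 1 library the tests would measure technical spread alone. Between 5223 and 9558 of 20605 loci were listed at 0, with fewer in Old 1 and Young 2 than in Old 2 and Young 1.

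RefSeq promoter windows, which run from 250 bases before to 50 bases after a transcript start (GRCm38.p6, the mm10 build), were available for 9 of the 10 members, in 13 windows. Per2 had no window and was not searched. Both strands were searched for the E-box CACGTG, the E-prime box CACGTT, the ROR element (an AT-rich stretch followed by a nuclear receptor core), the D-box TTANNTAA, which is read by the DBP and NFIL3 proteins, and the cAMP response element TGACGTCA. These motifs do not contain one another. Of all 32851 windows of 300 bases, 7.15% held the E-box, 4.68% the E-prime box, 0.384% the ROR element, 6.0% the D-box and 1.79% the cAMP response element. Of the 13 windows of the members, 2 held an E-box, 3 an E-prime box, 1 the ROR element, 1 the D-box and 0 the cAMP response element. Counted over the 9 members instead of windows, the numbers were the same.

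The stretches with a match are shown so that the elements named above can be seen in the members' own promoters, and the ROR element in Arntl and the E-box in Per1 belong to 2 of the 3 members that passed the test. Each is written 5′ to 3′ on the gene's own strand, with the motif in capitals.
Arntl ROR element: ggaaggcagAAAGTAGGTCAgggacggag
Per1 E-box: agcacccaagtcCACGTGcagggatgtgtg
Cry1 E-prime box and E-box: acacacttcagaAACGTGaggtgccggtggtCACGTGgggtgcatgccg
Cry2 E-prime box: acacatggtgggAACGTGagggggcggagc
Nr1d1 E-prime box: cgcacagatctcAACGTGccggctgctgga
Per3 D-boxes: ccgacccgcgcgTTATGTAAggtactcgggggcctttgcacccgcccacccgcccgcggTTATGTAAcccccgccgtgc

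The Arntl stretch lies at chr7:113207528-113207556 (+), and its motif begins at base 27 of a RefSeq transcript, within an exon. The Per1 stretch lies at chr11:69098771-69098800 (+), and its E-box begins at position −166 from a RefSeq start, inside the longer GENCODE gene span but in none of its exons. The Cry1 stretch (chr10:85185097-85185145, −), the Cry2 stretch (chr2:92434218-92434247, −), the Nr1d1 stretch (chr11:98775388-98775417, −) and the Per3 stretch (chr4:151044804-151044882, −) lie upstream of their genes and outside their exons. Clock, Npas2 and Nr1d2 held none of these motifs in their windows. A match is a description of the letters, and these windows leave out sites further away.

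Among the activators, Arntl encodes BMAL1, the partner of CLOCK or NPAS2 in the activator pair, and it spans chr7:113207465-113314126 (+). Its level was 4.67 in Old 1 and 4.75 in Old 2, and 1.01 in Young 1 and 1.34 in Young 2. Both old samples thus lay far above both young samples, and the samples of an age lay close together. The mean was 4.01-fold higher in old muscle, with single pairs of samples between 3.49 and 4.68. On the scale of log2(scaled FPKM + 1), which understates the change of low genes, Arntl rose by 1.40 (SE 0.106, limma adjusted p = 0.0240). In the values as deposited, Arntl was at 6.81 and 3.22 FPKM in Old 1 and Old 2 and at 0.698 and 1.96 in Young 1 and Young 2, so the groups did not overlap there either.

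Clock, the partner of BMAL1 and an acetyltransferase (chr5:76209868-76304792, −), was at 5.45 in Old 1 and 5.49 in Old 2, and at 4.004 in Young 1 and 4.43 in Young 2. The old samples were the higher ones, but the log2 difference of 0.31 (SE 0.0651) did not pass the threshold (limma adjusted p = 0.0673). Npas2, which can stand in for CLOCK (chr1:39193731-39363236, +), was at 0.140 and 0.00923 in Old 1 and Old 2 and at 0.0245 and 0.167 in Young 1 and Young 2. These levels overlapped between ages and lay below the limit of 1 FPKM in 2 samples that a gene needed for the test. The activator pair of this muscle was therefore measured through Arntl and Clock, and their ratio was 0.856 and 0.865 in Old 1 and Old 2 against 0.253 and 0.302 in Young 1 and Young 2.

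**Figure D1:**
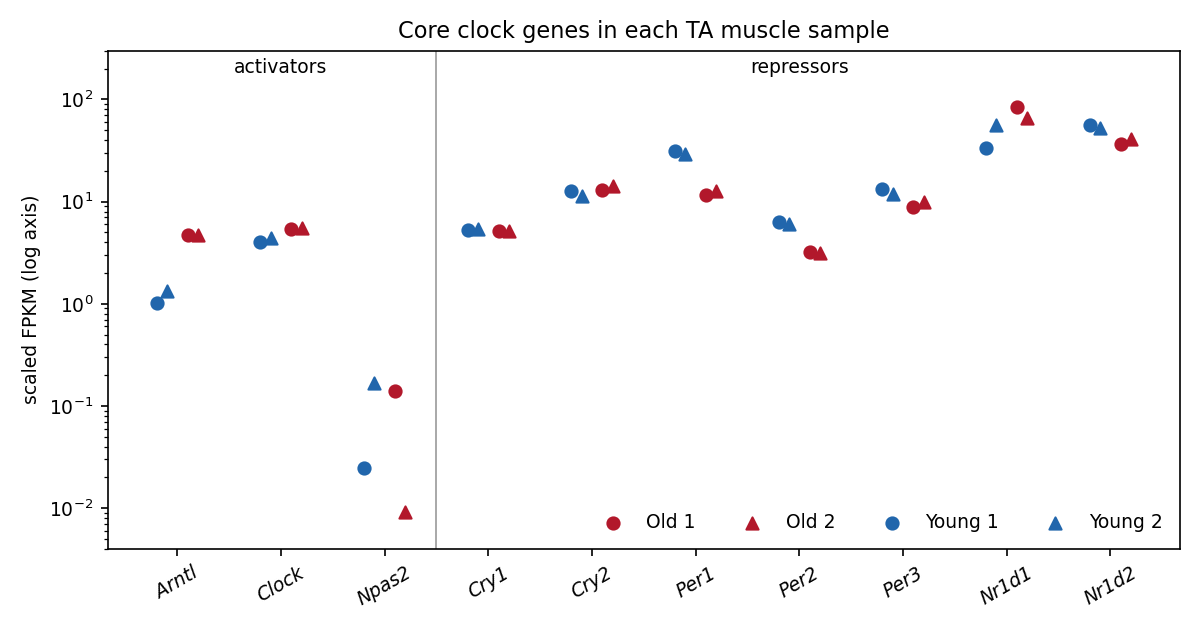
Scaled FPKM of the 10 core clock genes (log axis) in each of the 4 samples, with old samples in red and young samples in blue. Arntl lies higher and Per1 and Per2 lie lower in both old samples, the samples of Nr1d1 are spread most among the well expressed members, and Npas2 lies below all others.

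Among the repressors, the Per genes encode the proteins that gate the inhibition of the activator pair. Per1, which also answers quickly to cAMP and glucocorticoid signals (chr11:69095217-69109960, +), was at 11.5 in Old 1 and 12.8 in Old 2, and at 31.3 in Young 1 and 29.2 in Young 2. It was 2.48-fold lower in old muscle, with pairs of samples between 2.27 and 2.71. The log2 change was −1.25 (SE 0.0825, limma adjusted p = 0.0227). Thus Per1 fell, with a gap between the ages much wider than the spread within either.

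Per2, whose protein holds CRY in the inhibiting complex (chr1:91415982-91459324, −), was at 3.18 in Old 1 and 3.11 in Old 2, and at 6.29 in Young 1 and 6.03 in Young 2. It fell as well and was 1.96-fold lower in old muscle, with a log2 change of −0.79 (SE 0.0529, limma adjusted p = 0.0227). In the values as deposited, Per2 was at 4.65 and 2.11 FPKM in Old 1 and Old 2. It was at 4.32 and 8.85 in Young 1 and Young 2, so the ages overlapped there. Per3, the member of the family least needed for rhythm (chr4:151003652-151044665, −), was at 8.93 in Old 1 and 9.84 in Old 2, and at 13.2 in Young 1 and 11.9 in Young 2. Its old samples were the lower ones, but the log2 difference of −0.38 (SE 0.0860) did not pass (limma adjusted p = 0.0746).

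The make-up of the Per family within a sample does not depend on the scaling. Per1 made up 48.8% and 49.8% of the summed Per FPKM in Old 1 and Old 2, against 61.6% and 62.0% in Young 1 and Young 2. Per3 made up 37.8% and 38.1% in the old samples, against 26.0% and 25.2% in the young. Per2 held 12.1% to 13.5% in all 4 samples, and its old and young shares overlapped. Per1 was thus the most abundant Per transcript at both ages, by a smaller margin in old muscle.

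The Cry genes encode the strongest inhibitors of the activator pair. Cry1 (chr10:85131700-85185064, −) was at 5.16 and 5.18 in Old 1 and Old 2, and at 5.29 and 5.37 in Young 1 and Young 2. The log2 difference was −0.04 (SE 0.0468, limma adjusted p = 0.715), the smallest of the members tested. Cry2 (chr2:92403646-92434043, −) was at 12.9 and 14.3 in Old 1 and Old 2, and at 12.6 and 11.4 in Young 1 and Young 2, with a log2 difference of 0.17 (SE 0.0885, limma adjusted p = 0.297). Cry2 was the more abundant of the pair in every sample, with Cry2 to Cry1 ratios of 2.504 and 2.77 in old muscle and 2.38 and 2.12 in young muscle. A gene of the opposite strand, D930015M05Rik, shares 295 exonic bases with Cry2.

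The nuclear receptors that repress Arntl were the most abundant members. Nr1d2 (chr14:18204054-18239127, −) was at 36.5 in Old 1 and 40.8 in Old 2, and at 56.8 in Young 1 and 52.7 in Young 2. Its old samples were the lower ones, and the log2 difference of −0.49 (SE 0.0890) came close to the threshold without passing it (limma adjusted p = 0.0552). Nr1d1 (chr11:98767932-98775333, −) was at 84.3 in Old 1 and 65.8 in Old 2, and at 33.3 in Young 1 and 56.2 in Young 2. Its old samples were the higher ones, but its spread within an age was the widest of the members tested, and the log2 difference of 0.77 (SE 0.318) did not pass (limma adjusted p = 0.211).

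Nr1d1 shares 263 of its 3077 exonic bases with Thra, a thyroid hormone receptor gene on the opposite strand. The locus deposited for Nr1d1, chr11:98741822-98775304, is wider than the GENCODE span given above. The methods name a stranded kit and the labels name a kit without that word, so reads of the shared bases may not be assigned with certainty. Thra was at 46.9 and 10.3 in Old 1 and Old 2 and at 25.6 and 45.6 in Young 1 and Young 2, so it was higher in Old 1 and Young 2, the samples in which Nr1d1 was also the higher of its age. The log2 difference of Thra was −0.60 (SE 0.856, limma adjusted p = 0.764). Abundant fibre genes such as Pvalb, a calcium buffer of fast fibres, had the same order, at 13970 and 4906 in Old 1 and Old 2 and 4718.5 and 13596 in Young 1 and Young 2. The part of this in the spread of Nr1d1 was not tested.

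Of the 9 members tested, 1 rose and 2 fell. Over all 10266 labels tested, 5.61% rose and 7.94% fell at the same threshold. After scaling, all 9 members tested had old and young samples that did not overlap, 4 with old muscle higher and 5 with old muscle lower. That was the case for 27.8% and 28.4% of all labels tested. In the values as deposited, only Arntl and Per1 of these members had ages that did not overlap. The median log2 difference of the 9 was −0.04, against −0.01 over all labels tested, and members lay on both sides of 0. An exact permutation test of 1 gene in 2 against 2 samples cannot go below a two-sided p of 0.333.

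**Figure D2:**
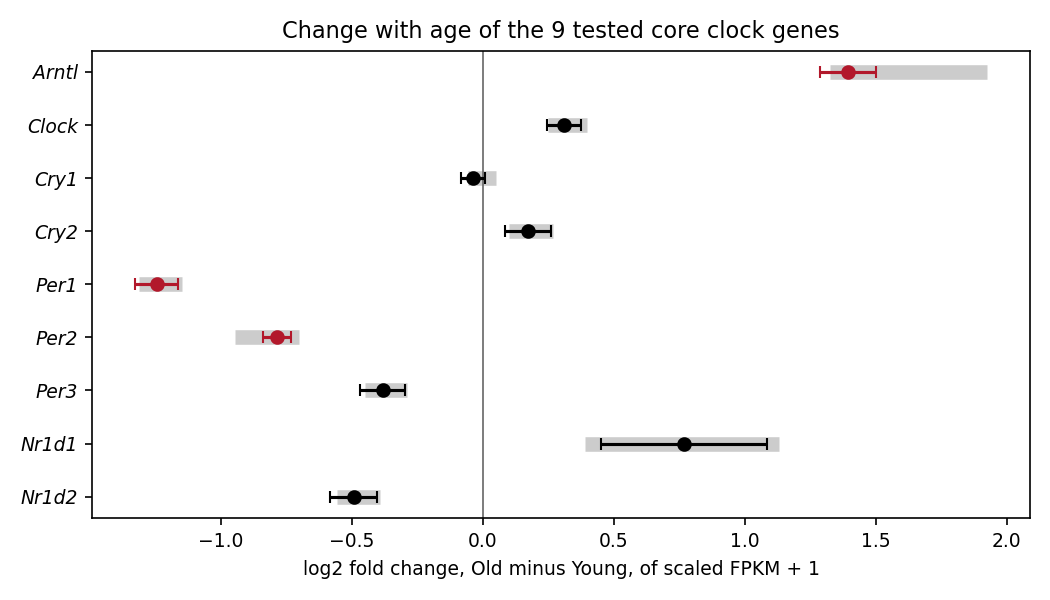
Log2 fold change, old minus young, of scaled FPKM + 1 for the 9 members tested, as points (red where limma called a change) with bars of 1 standard error and, in grey, the range over the other processing settings. Arntl (1.40) lies furthest above 0, Per1 (−1.25) and Per2 (−0.79) furthest below, and only the grey range of Cry1 crosses 0.

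The calls on these members, though not the size of the differences, needed both Old 2 and Young 1. Without Old 2 the limma adjusted p was 0.231 for Arntl, 0.169 for Per1 and 0.228 for Per2, and without Young 1 it was 0.139, 0.142 and 0.154, and over all labels 0 rose and 1 to 2 fell in limma in these fits (716 to 1105 rising at an unadjusted p under 0.05), so the counts of the gene lists below rest on the same samples. In the values as deposited, without scaling, limma called 0.175% of labels higher and 0.127% lower, and 0 members at an adjusted or an unadjusted p under 0.05. The log2 differences themselves were 1.45 for Arntl, −1.31 for Per1 and −0.78 for Per2 without Old 2, and 1.33, −1.21 and −0.79 without Young 1. They were 1.36 for Arntl, −1.26 for Per1 and −0.79 for Per2 without scaling.

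Ratios of members within a sample are free of any factor shared by its genes. The Arntl to Per1 ratio was 0.405 in Old 1 and 0.370 in Old 2, and 0.0324 in Young 1 and 0.0458 in Young 2. The Arntl to Per2 ratio was 1.47 and 1.53 in old muscle, and 0.161 and 0.222 in young muscle. Arntl thus exceeded Per2 in both old samples and lay far below it in both young samples. The Arntl to Nr1d2 ratio was 0.128 and 0.116 in old muscle, against 0.0179 and 0.0253 in young muscle. The Nr1d1 to Nr1d2 ratio was 2.31 and 1.61 in old muscle and 0.586 and 1.07 in young muscle. Nr1d1 therefore exceeded Nr1d2 in both old samples but in only 1 of the young samples.

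Activators were set against repressors as the mean of log2(scaled FPKM + 1) over the 3 activators minus that over the 7 repressors. This contrast was −2.08 in Old 1 and −2.15 in Old 2, and −3.03 in Young 1 and −2.89 in Young 2. Repressors were the more abundant class in every sample, and the balance lay nearer to the activators in old muscle. The difference between the ages was 0.85, with an SD within an age of 0.0802 (pooled over both ages, 2 samples each), and no test was made of it. Of this, the activators were higher by 0.56 and the repressors were lower by 0.29. Most of the activator part came from Arntl (1.40), with Clock at 0.31. Among the repressors, Nr1d1 (0.77) and Cry2 (0.17) were higher in old muscle and the other 5 were lower. The contrast thus holds again the changes of Arntl, Per1 and Per2 given above, and it was not computed without Arntl. Without Npas2, which was near 0 in every sample, the difference was 1.14. Without the added 1 in the logarithm, the contrast was −3.10 in Old 1 and −4.43 in Old 2. It was then −5.15 in Young 1 and −4.08 in Young 2, so the ages overlapped in that setting.

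**Figure D3:**
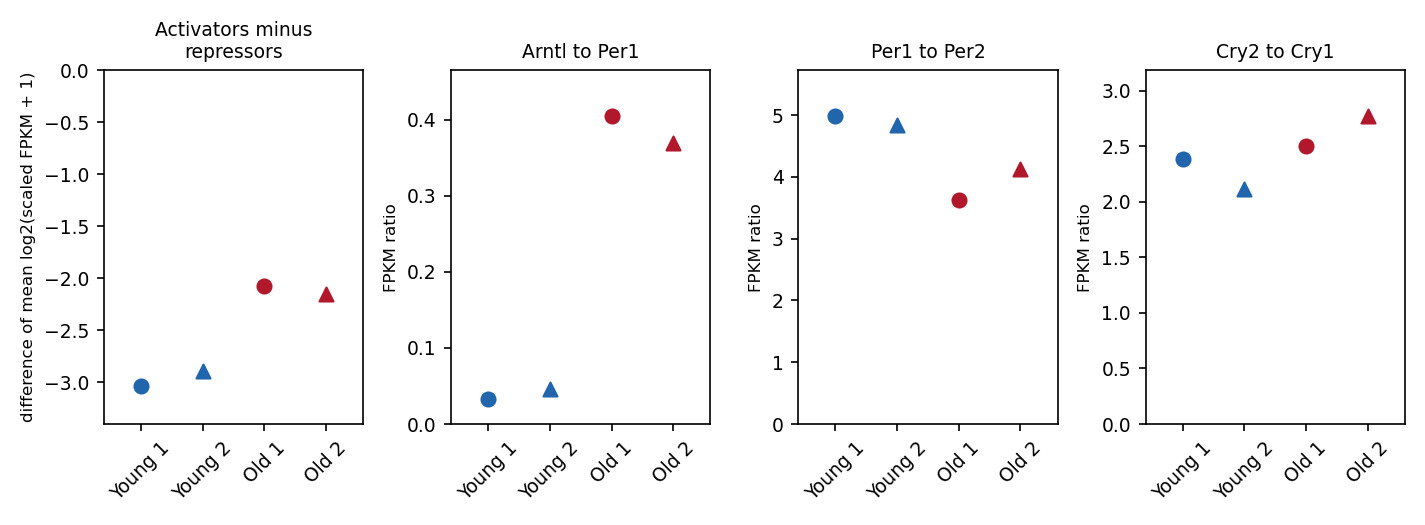
The activator minus repressor contrast on the log2 scale and the FPKM ratios of Arntl to Per1, Per1 to Per2 and Cry2 to Cry1 in each sample, with old samples in red and young samples in blue. The contrast and the Arntl to Per1 ratio lie higher in both old samples (0.370 to 0.405 for the ratio, against 0.0324 to 0.0458), and the Per1 to Per2 ratio lies lower.

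The order of the members by level differed between the ages. In old muscle it ran from Nr1d1 through Nr1d2, Cry2, Per1, Per3, Clock, Cry1, Arntl and Per2 to Npas2, and no neighbours in it overlapped between their 2 samples. In young muscle it ran from Nr1d2 through Nr1d1, Per1, Per3, Cry2, Per2, Cry1, Clock and Arntl to Npas2. There the samples of Nr1d2 and Nr1d1 overlapped, as did those of Per3 and Cry2, so these neighbours cannot be ordered. Per1 stood above Cry2 in young muscle and below it in old muscle, and Per2 stood above Cry1, Clock and Arntl in young muscle and below all of them in old muscle.

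Genes around the loop were read from the same fit, in lists written for the clock. The counts of these lists and of the markers below are to be read against all 10266 labels tested. Of those, 5.61% rose and 7.94% fell, and 1666 were higher and 1812 lower in limma at an unadjusted p under 0.05. Of 13 clock partners and outputs, 11 had a value and 9 were tested, of which 1 rose and 1 fell (median log2 difference 0.24). Bhlhe40 (DEC1), a repressor that competes for E-boxes, was at 64.7 and 69.2 in Old 1 and Old 2 and at 36.6 and 34.4 in Young 1 and Young 2, and rose by 0.90 (limma adjusted p = 0.0244). Nfil3 (E4BP4), the repressor that binds D-boxes, was at 5.06 and 4.93 in old muscle and at 15.3 and 12.9 in young muscle, with a log2 change of −1.33 (limma adjusted p = 0.0240). Thus, of these repressors of clock elements, 1 rose and 1 fell.

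The activators of the same D-boxes showed smaller differences. Dbp shares its label with its neighbour Car11, which was at 93.6 and 97.6 in old muscle and at 81.5 and 80.1 in young muscle and did not pass (limma adjusted p = 0.0892). The log2 differences of its relatives Tef (−0.05) and Hlf (0.27) did not pass either. Ciart, a repressor of the activator pair listed under its older name Gm129, had a log2 difference of −0.60 (limma adjusted p = 0.0692).

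Of 20 kinases and ubiquitin ligases that act on clock proteins, 17 had a value and 16 were tested, of which 0 rose and 3 fell (median −0.07, and 2 higher with 5 lower in limma at an unadjusted p under 0.05). Sik1, a kinase that limits light and cAMP signals to the clock, was at 2.86 and 2.87 in Old 1 and Old 2 and at 9.36 and 8.65 in Young 1 and Young 2, with a log2 change of −1.37 (limma adjusted p = 0.0205). Siah2, a ligase that turns over REV-ERB alpha, had a log2 change of −0.43 (limma adjusted p = 0.0431), and Prkaa1, an AMPK subunit that marks CRY for breakdown, one of −0.35 (limma adjusted p = 0.0419). The kinases of PER, Csnk1d (−0.08) and Csnk1e (0.11), did not pass.

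Of 18 chromatin cofactors of the clock, 13 had a value and were tested, and 0 passed in limma (median 0.21, and 5 higher with 1 lower at an unadjusted p under 0.05). The largest differences were those of Kat2b, an acetyltransferase (0.60), Ncor1, the corepressor through which REV-ERB acts (0.50), the deacetylase Hdac1 (0.33) and Crtc2, a coactivator of CREB (−0.32).

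Of 15 genes of muscle described as controlled by the clock, 14 had a value and were tested, of which 0 rose and 7 fell (median −0.46, and 2 higher with 8 lower in limma at an unadjusted p under 0.05). Fkbp5, a glucocorticoid-induced chaperone, was at 4.02 and 4.14 in Old 1 and Old 2 and at 18.5 and 17.4 in Young 1 and Young 2, with a log2 change of −1.90 (limma adjusted p = 0.0181). Coq10b, of coenzyme Q metabolism, was at 12.6 and 13.1 in old muscle and at 36.1 and 32.1 in young muscle, with a log2 change of −1.34 (limma adjusted p = 0.0226). The others that fell were Cdkn1a, an inhibitor of the cell cycle (−0.70), Slc2a4, the insulin-responsive glucose transporter (−0.69), Ppargc1a, a coactivator of mitochondrial genes (−0.69), Hk2, which phosphorylates glucose (−0.47), and Myod1, the myogenic factor (−0.28). Those 7 include genes of glucose uptake, mitochondria, the cell cycle and stress hormone response, and the list was written with earlier results of these samples known. Pdk4, which turns fuel use away from glucose, was at 208 and 207 in old muscle and at 109 and 149 in young muscle and did not pass (limma adjusted p = 0.0913).

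**Figure D4:**
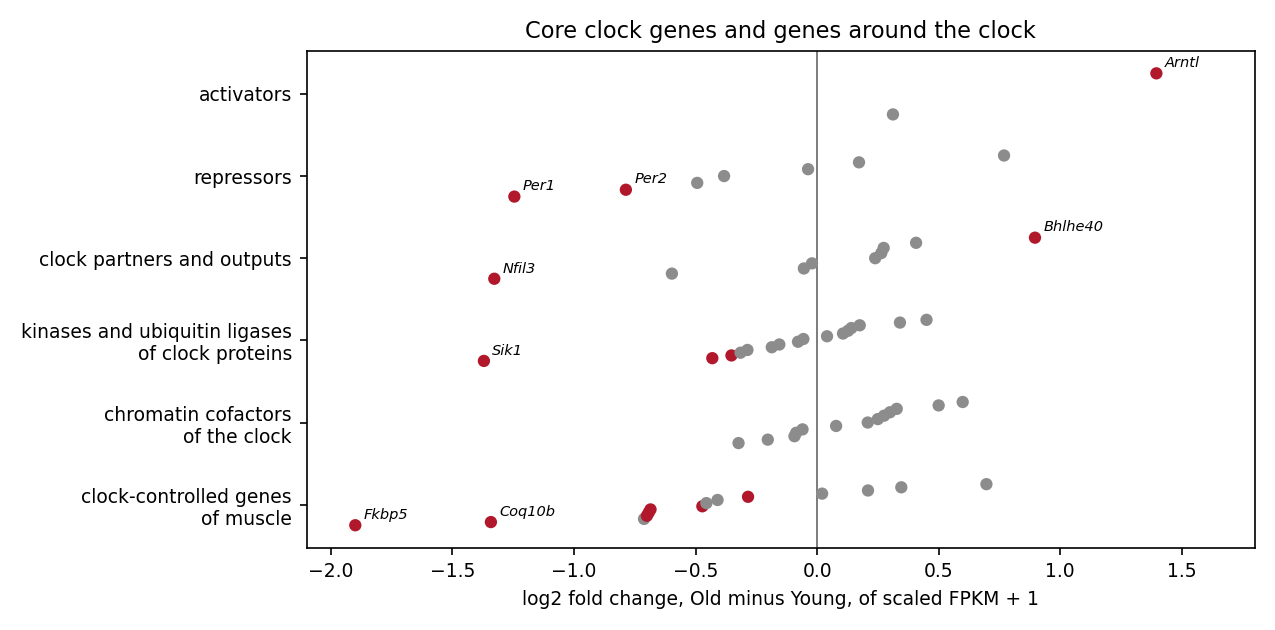
Log2 fold change, old minus young, of scaled FPKM + 1 for every tested gene of the core clock and of the lists around it, one point per gene, with genes past an adjusted p of 0.05 in red and the others in grey. Gene names are given for red points beyond 0.75 in size, and the clock-controlled genes of muscle hold 7 red points, all below 0.

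Markers of the cells in the muscle were read beside these results. Of 10 muscle fibre markers, 9 had a value and 8 were tested, with 0 past the threshold in limma (1 lower at an unadjusted p under 0.05). Ckm was listed at 0 in all samples and Ttn in both old samples. The 1 lower marker was Ttn, at 20.6 in Young 1 and 204 in Young 2, so its difference rests on values listed at 0. The cause of these zeros was not tested. All 5 slow fibre genes rose, with a summed level of 620 to 799 in old muscle against 40.6 to 49.7 in young muscle. The label shared by the haemoglobin genes Hba-a1 and Hba-a2, of blood, rose from 57.4 and 60.4 in young muscle to 416 and 409 in old muscle. Of 5 fibroblast markers, 3 collagen genes fell (Col1a1, Col1a2 and Col3a1), with log2 changes of −1.96, −1.54 and −1.41. The other fibroblast markers, Dcn (0.30) and Pdgfra (0.16), were the higher ones in both old samples and did not pass (limma adjusted p = 0.148 and 0.358). The summed level of all 5 was 114 to 127 in old muscle and 168 to 182 in young muscle.

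Of 4 endothelial markers tested, 1 fell, the receptor gene Tie1 (log2 change −0.60). Of 4 adipocyte markers and 3 macrophage and leukocyte markers tested, 0 passed the threshold in limma (at an unadjusted p under 0.05, 1 and 0). Their summed levels overlapped between the ages, at 3.70 to 106 and 1.29 to 4.65. Cfd set most of the adipocyte sum in Old 1 (81.4) and Young 2 (100). It was listed at 0 in Old 2 and Young 1. Adipoq was at 5.81 and 4.38 in Old 1 and Old 2 and at 1.99 and 2.93 in Young 1 and Young 2. Lep, too low to test, was also higher in both old samples, while Plin1, Cidec and Cfd overlapped. Slow fibre, blood and collagen genes thus moved with age alongside Arntl, Per1 and Per2, and their part in the clock results was not tested. In RNA of whole muscle, fewer cells of a type and less RNA per cell cannot be told apart.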

How the data were processed

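TA muscle RNA was sequenced in 2 samples per age, grouped by the sample titles. Per the study's methods, the authors trimmed reads, removed PCR duplicates, aligned to mm10 with TopHat2 2.0.10 and RefSeq gene models, and ran Cufflinks on each sample. The FPKM values per locus were deposited by the authors. The submitters' processing notes also name Cuffdiff 2.1.1, which needs aligned reads and was not repeated here. FPKM values hold no counts, so the depth is unknown and no counting interval is given.

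One incomplete last line per sample and 542 loci with values in some of the samples were dropped. The 20605 loci kept were summed by label to 20340, and members were matched by symbol, split at commas. Each sample was divided by its median ratio to the geometric mean over labels with at least 1 FPKM in all samples (divisors 0.6785 to 1.4678). log2(scaled FPKM + 1) was compared with limma 3.58.1 in R 4.3.3 (trend, two-sided, Benjamini-Hochberg over 10266 labels that reached 1 FPKM in 2 or more samples, adjusted p under 0.05), a procedure tested on simulated data. The simulation gave all genes independent noise of the same size. It therefore does not cover the deviations shared between samples that are described below, nor the wider spread of some genes. Scaling assumes that most genes do not differ between samples. Gene spans and exons came from GENCODE M21 (mm10) and tables were made with Python 3.11.15 and pandas 2.3.3. The deposited loci of Nr1d1 and Clock (chr5:76183879-76469519) are wider than these spans.

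All 10 members are named. Of the other lists, genes past the threshold are named, or else up to 4 with the largest differences, and a few others (Dbp, Tef, Hlf, Ciart, Csnk1d, Csnk1e, Pdk4, Pvalb and Thra) were added after their values were seen. The members and lists were chosen with earlier results of these data known. The p-values measure only the spread between these samples, which may be technical. Alternatives were other scalings, pseudocount, filters, locus choice, no trend, a replicate block and leaving out each sample.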

Additional observations from a re-analysis of the deposited data

How the results depend on the processing

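As reported, 576 labels rose and 815 fell, among them 1 and 2 clock genes, and each pair of counts below gives rising and falling genes in limma. Without scaling, 18 and 13 labels and 0 and 0 clock genes passed (at an unadjusted p under 0.05, also 0 and 0 clock genes), and with equal total FPKM 7 and 5 labels and 0 and 0 clock genes (unadjusted 1 and 2). Quantile normalization gave 92 and 146 labels and 0 and 1 clock genes, and cyclic loess normalization 1135 and 1395 labels and 1 and 4 clock genes. Without a filter 115 and 204 labels and 0 and 1 clock genes passed, and with 1 FPKM required in every sample, which removes Arntl, 1222 and 1302 labels and 1 and 4 clock genes. Without the trend 103 and 181 labels passed. A pseudocount of 0.1 and the highest locus per label kept every count within 1.5 times. The replicate number as a block gave 24 and 21 labels and 0 and 0 clock genes (unadjusted 1 and 2). After scaling, samples with the same number deviated in opposite directions (r = −0.903 across 10266 genes), and those with different numbers deviated together (r = 0.903). Old 1 thus differed from Old 2 much as Young 2 did from Young 1. The main fit takes no account of this, and its cause was not tested. The crossed block (Old 1 with Young 2, Old 2 with Young 1), chosen after seeing the data, gave 3242 and 3502 labels and 4 and 4 clock genes.

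Leaving out each sample in turn gave 0 to 617 rising and 1 to 767 falling labels, and 0 to 2 rising and 0 to 3 falling clock genes. The lowest counts came without Old 2 or Young 1, where the median over all labels moved to 0.11 and −0.11, and the single sample left was assumed to vary like the other age. Without Young 2, Nr1d1 (1.13, adjusted p = 0.0155) and Per3 (adjusted p = 0.0460) also passed. The activator minus repressor difference of 0.85 lay between 0.78 and 0.92 without a sample and was 1.02 without Nr1d1 and Nr1d2 and 1.14 without Npas2, the last chosen after seeing the data. Without a pseudocount this difference was 0.84, but the samples of the 2 ages overlapped. Over the alternatives, Arntl lay between 1.33 and 1.93 and passed in 7 of 14, Per1 between −1.31 and −1.15 (10 of 15) and Per2 between −0.95 and −0.70 (8 of 15). Cry1 was the only member to turn direction, to 0.050 with equal total FPKM. The cause of these shifts was not tested. With 2 samples per age, not tied to single mice, and an unknown depth, differences in low genes such as Npas2 were not detectable here.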
